A study of Mus musculus with 8 samples.

Results

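The genes described here write, remove or read chemical marks on histones: 9 acetyltransferases, 13 demethylases, 10 methyltransferases, 4 subunits of polycomb repressive complex 2 (PRC2), 6 bromodomain genes, 7 sirtuins and 4 corepressor subunits. They were chosen by name, as a list of 53 gene symbols, and all 53 were found among the 19933 genes with a transcript cluster (the array's gene-level probe set) of their own. None of the 53 fell under the filter on dim genes, so all were tested. The hearts came from 6-week-old C57BL/6 males, 4 wild type (WT) and 4 HDAC3-deficient (KO), each read on 1 Affymetrix Mouse Gene 1.0 ST array. All mice ate normal chow. The labels call the mutant line MCH3-KO and name neither the promoter nor the heart cells in which the gene was removed. Replicate numbers in the titles name separate biological samples.

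HDAC3 is a histone deacetylase: it takes acetyl groups off histone tails as the enzyme of the NCoR and SMRT corepressor complexes. Acetyltransferases such as EP300 and KAT2B place those groups, and proteins with a bromodomain bind them. Methyltransferases and demethylases work in the same way on methyl groups, where the mark's place on the histone decides whether it goes with active or silent genes. In heart muscle the methyltransferase SMYD1 is known for its part in building the sarcomere, and PRC2 for keeping genes of other lineages silent. The question put to these genes is whether hearts that lack a deacetylase also carry other amounts of transcript for the rest of this machinery.

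Of the 53 genes, 13 changed, 2 higher and 11 lower in KO hearts, and none of these differences was larger than 0.30 on the log2 scale (81.2% of the WT level). The falls were in Smyd2, Brd9, Kdm1b, Kdm4b, Smyd1, Sirt5, Kdm1a, Brd7, Kmt2d, Sirt4 and Kdm4a, and the rises in Kdm3a and Kmt2e. No acetyltransferase, PRC2 subunit or corepressor subunit passed the test. A difference below is the KO mean less the WT mean in log2 intensity, n = 4 arrays per group, from limma's moderated test over 14950 genes with Benjamini-Hochberg adjustment and a threshold of 0.05. Over all genes tested 24.6% changed, so the members' share of 24.5% was close to the background. By direction, 3.77% of the members rose against 10.8% of all genes, and 20.8% fell against 13.9%. All 53 members lay above the 50th percentile of mean level, taken over all 19933 genes. In a fit of those brighter genes 17 of the 53 (32.1%) passed, against 36.9% of the genes. Of the 17 members 2 were higher and 15 lower, where 14.7% of the brighter genes were higher and 22.2% lower. Without WT replicate 1 the members that passed were 1 higher and 5 lower, without KO replicate 2 they were 1 and 6, and without KO replicate 1 they were 2 and 6. Without WT replicate 3 they were 2 and 7, without WT replicate 2 they were 1 and 10, and without KO replicate 3 they were 1 and 9. Counts over all 14950 genes moved too, from 1612 higher and 2071 lower with all arrays. They were 1313 and 1752 without WT replicate 1, 1251 and 1781 without KO replicate 2, and 1211 and 1658 without KO replicate 1. They were 1408 and 1862 without WT replicate 3, 1668 and 1842 without WT replicate 2, and 1366 and 1788 without KO replicate 3. The 6 members that passed in each of 17 other ways of processing the data were Kdm1b, Kdm4b, Kmt2e, Smyd1, Smyd2 and Brd9.

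The promoters of 5 of the changed genes, chosen by name, are printed here, among them that of the muscle-restricted Smyd1. Each window is the stretch of 250 bases before the transcription start, 5′ to 3′ on the gene's own strand, from RefSeq on GRCm38.p6, and capitals mark CG dinucleotides. Where the table lists several starts, as for Brd9 (2) and Kdm3a (3), the first is shown. The windows are chr6:71262282-71262531 on the minus strand (Smyd1), chr1:189922292-189922541 on the minus strand (Smyd2), chr13:73937561-73937810 on the plus strand (Brd9), chr13:47043249-47043498 on the plus strand (Kdm1b) and chr6:71632918-71633167 on the minus strand (Kdm3a).
Smyd1: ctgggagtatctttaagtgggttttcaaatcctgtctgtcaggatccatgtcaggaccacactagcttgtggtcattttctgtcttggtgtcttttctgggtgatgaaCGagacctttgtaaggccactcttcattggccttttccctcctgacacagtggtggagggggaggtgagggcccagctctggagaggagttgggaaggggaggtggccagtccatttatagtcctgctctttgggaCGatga
Smyd2: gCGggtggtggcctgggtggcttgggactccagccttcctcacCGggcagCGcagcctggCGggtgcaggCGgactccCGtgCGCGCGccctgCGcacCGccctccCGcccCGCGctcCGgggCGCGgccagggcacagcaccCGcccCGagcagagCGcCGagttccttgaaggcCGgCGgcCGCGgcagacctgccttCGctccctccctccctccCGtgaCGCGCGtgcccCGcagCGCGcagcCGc
Brd9: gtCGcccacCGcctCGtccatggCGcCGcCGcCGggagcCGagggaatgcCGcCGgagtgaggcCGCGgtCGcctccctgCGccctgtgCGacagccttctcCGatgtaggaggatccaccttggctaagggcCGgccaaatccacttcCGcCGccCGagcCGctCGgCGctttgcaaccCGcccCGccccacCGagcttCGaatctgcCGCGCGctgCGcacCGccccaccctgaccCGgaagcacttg
Kdm1b: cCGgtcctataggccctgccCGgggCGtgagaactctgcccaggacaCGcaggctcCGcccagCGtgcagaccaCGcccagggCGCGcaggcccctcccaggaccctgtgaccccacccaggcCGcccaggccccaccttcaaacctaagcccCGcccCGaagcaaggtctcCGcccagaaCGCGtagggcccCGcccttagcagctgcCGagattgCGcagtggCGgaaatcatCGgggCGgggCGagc
Kdm3a: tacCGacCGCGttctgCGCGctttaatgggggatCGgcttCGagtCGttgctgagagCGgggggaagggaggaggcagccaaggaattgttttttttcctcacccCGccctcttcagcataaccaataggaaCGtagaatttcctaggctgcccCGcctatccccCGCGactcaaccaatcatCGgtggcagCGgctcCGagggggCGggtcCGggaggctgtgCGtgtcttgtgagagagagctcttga

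Smyd1's window held 2 CG dinucleotides, against 34 in Smyd2, 33 in Brd9, 22 in Kdm1b and 20 in Kdm3a. A promoter entry was found for 45 of the 53 members, and their median was 21 CG dinucleotides, against a median of 14 over the 11807 tested genes with an entry. Among the genes tested, 9.31% held 2 or fewer. Members that changed had a median of 21 (11 genes) and those that did not pass one of 19.5 (34 genes). The lowest count among the members, 0, was that of Kdm4c, which did not pass. The letters TATAAA, searched on both strands, stood in 1 of the 45 windows, that of Smyd1. There they stood on the strand opposite to the gene's own, so the printed window reads TTTATA at that place. On either strand they stood in 7.58% of the windows of the genes tested (13% of all 27025 promoters of this length). The letters CCGGAAG, the core of ETS factor sites, stood in 6 of the 45 windows (13.3%), Brd9's among them, against 11.7% of the genes tested (7.05% of all promoters). The letters ACGTG, the core of hypoxia response elements, stood in 10 windows (22.2%), against 20.6% of the genes tested (16.6% of all promoters), and not in this window of Kdm3a. E-boxes (CACGTG), which contain ACGTG, stood in 3 (6.67%), against 7.97% of the genes tested (6.05% of all promoters). These matches are descriptions of letters.

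The check of the labels was made on the targeted gene. Hdac3 was 10.14, 10.04, 10.20 and 10.04 in WT replicates 1 to 4 and 8.59, 8.59, 8.59 and 8.50 in KO replicates 1 to 4 (log2 intensity), so all KO hearts lay below all WT hearts. It stood at 34.4% of the WT level (-1.54, SE 0.05). Median intensities of the arrays ranged from 54.1 to 56.5. All 12 cardiomyocyte markers were bright, with WT means of 11.97 to 13.30 on the log2 scale. In the list of macrophage and neutrophil markers 20 of 21 tested rose. Their summed intensity was 4429 to 5123 in WT and 10385 to 12730 in KO hearts. The neutrophil gene S100a9 did not pass (0.11, adjusted p = 0.34), and S100a8 lay under the dim filter. Of 14 proliferation markers 10 rose, with sums of 1182 to 1356 in WT and 1552 to 1722 in KO hearts. Of 12 cardiomyocyte markers 4 fell, with sums of 85163 to 86484 in WT and 80422 to 81376 in KO hearts. Fibroblast markers rose in 4 and fell in 1 of 12, with sums that overlapped (8822 to 9535 and 9134 to 10294), as did those of the 10 endothelial markers (8198 to 9691 and 8657 to 9000), of which 1 rose. The 7 smooth muscle markers did not pass, with sums of 6492 to 8808 in WT and 8019 to 8734 in KO hearts. Of 9 lymphocyte markers 4 lay under the dim filter (Cd3g, Cd79a, Ms4a1, Klrb1c) and 1 of the other 5 rose (sums of 254 to 304 and 279 to 289). Of the 4 erythroid and platelet markers Pf4 rose (1.35) and Alas2 fell (-0.33). The other platelet markers, Ppbp (0.03) and Itga2b (-0.13), did not pass, so the higher sum of the 4 in KO hearts (657 to 688 and 837 to 976) came from Pf4. No marker was at 0. In whole tissue, fewer cells of a type and less RNA per cell cannot be told apart, and the part of the macrophage and proliferation markers in the differences below was not tested.

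**Figure D1:**
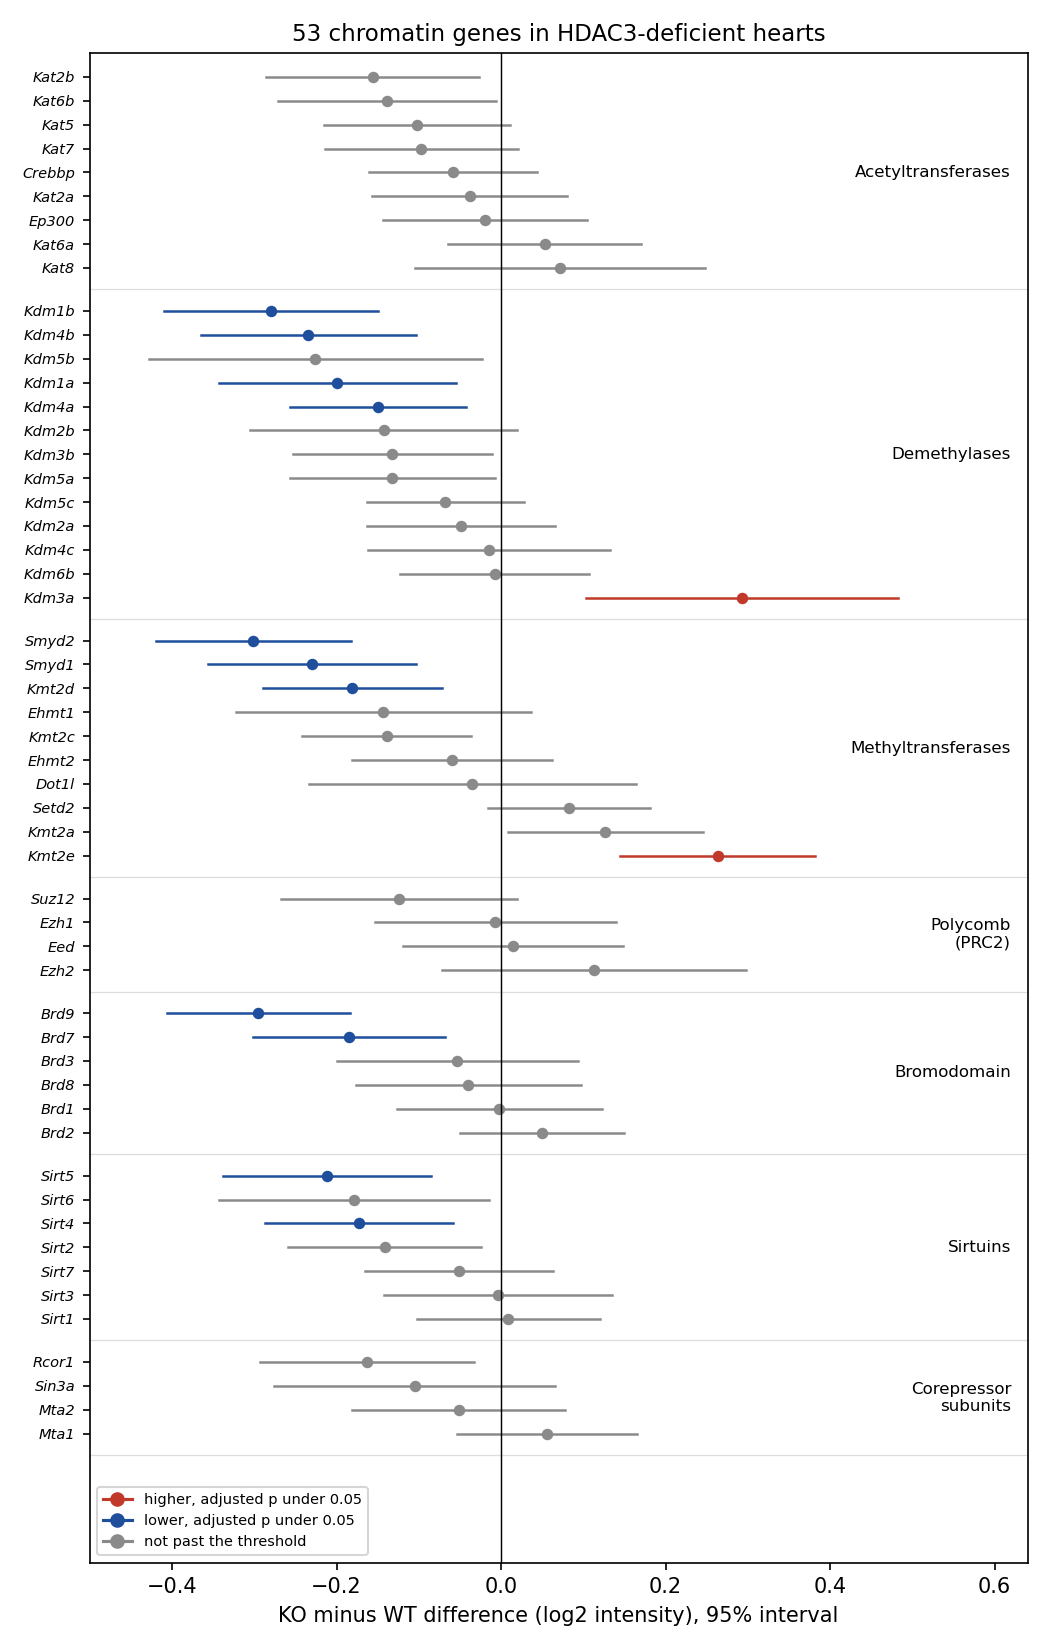
KO minus WT difference of each of the 53 genes (log2 intensity, points) with its 95% interval (lines), grouped by role, from 4 WT and 4 KO arrays. Red and blue mark the 2 higher and 11 lower genes that passed the threshold; all points lie between -0.30 and 0.29.

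The group of methyltransferases, in which Kmt2e was counted by its name, held the largest fall and 1 of the rises. In it 3 of 10 fell and 1 rose (40.0% changed, beside 24.6% of all genes tested), and the group's median was -0.10. Groups as small as those here were not tested against that share. Smyd2, which methylates histones and several other proteins, had the largest difference of all members. Its WT values were 9.34, 9.49, 9.33 and 9.45 and its KO values 9.13, 9.11, 9.12 and 9.05. The KO hearts lay close together and all below the lowest WT heart. Smyd2 fell by 0.30 (SE 0.05, 95% interval -0.42 to -0.18, adjusted p = 0.00224), to 81.2% of the WT level.

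Smyd1, the muscle-restricted relative of Smyd2, was 10.67, 10.65, 10.57 and 10.57 in WT hearts and 10.42, 10.43, 10.42 and 10.25 in KO hearts. The groups did not overlap, and KO replicate 4 was the lowest by a clear gap. Smyd1 fell by 0.23 (SE 0.06, 95% interval -0.36 to -0.10, adjusted p = 0.0142), beside the cardiomyocyte markers, whose mean over 12 genes was 0.10 to 0.12 below the WT mean in the KO hearts. The part of those cells in the fall was not tested.

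Kmt2e, which shares its name with the KMT2 methyltransferase genes, rose. Its WT values were 9.19, 9.29, 9.15 and 9.23 and its KO values 9.54, 9.45, 9.52 and 9.41, with no overlap. The difference was 0.26 (SE 0.05, 95% interval 0.15 to 0.38, adjusted p = 0.00472). The other 3 members of that family did not share one direction in their values. Kmt2d, which methylates histone H3 lysine 4 at enhancers, was 8.75, 8.74, 8.71 and 8.62 in WT and 8.54, 8.48, 8.52 and 8.56 in KO hearts. It fell by 0.18 (SE 0.05, adjusted p = 0.0216). Leaving out WT replicate 1 (adjusted p = 0.0601), WT replicate 3 (0.0504), KO replicate 1 (0.0538) or KO replicate 2 (0.0658) ended that call. A second, dimmer cluster of Kmt2d differed by -0.32.

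Kmt2c, the close relative of Kmt2d, was 8.72 to 8.81 in WT and 8.62 to 8.69 in KO hearts (-0.14, 95% interval -0.24 to -0.04, adjusted p = 0.0513). It passed in 6 of the 17 alternatives. Kmt2a was 8.93 to 9.10 in WT and 9.13 to 9.21 in KO hearts (0.13, 95% interval 0.01 to 0.25, adjusted p = 0.115). Neither pair of groups overlapped, yet neither gene passed. Ehmt1, which places the silencing mark on histone H3 lysine 9, differed by -0.14 (adjusted p = 0.24), with WT replicate 2 at 7.41 and the other WT hearts at 7.04 to 7.12. Without WT replicate 2 the difference was -0.06 (adjusted p = 0.481). Its partner Ehmt2, the H3 lysine 79 methyltransferase gene Dot1l and the H3 lysine 36 methyltransferase gene Setd2 lay between -0.06 and 0.08.

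Among the demethylases 12 of 13 differences were below 0, where 51.8% of all genes tested and 55.8% of the brighter genes were. Of those below 0, 4 passed, and the remaining gene rose (38.5% changed, beside 24.6% of all genes tested). The median was -0.13. Kdm3a, which removes methyl groups from histone H3 lysine 9 and is known as a hypoxia-induced gene, was 7.25, 7.32, 7.48 and 7.54 in WT and 7.62, 7.65, 7.90 and 7.58 in KO hearts. The lowest KO heart lay just above the highest WT heart, and KO replicate 3 stood highest. Kdm3a rose by 0.29 (SE 0.09, 95% interval 0.10 to 0.48, adjusted p = 0.0299). The call ended without WT replicate 1 (0.25, adjusted p = 0.0817), WT replicate 2 (0.27, 0.0694), KO replicate 2 (0.31, 0.0557) or KO replicate 3 (0.22, 0.0676), and with median scaling of the arrays. Its relative Kdm3b differed by -0.13 (adjusted p = 0.108).

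Kdm3a and Smyd1 lie on the same chromosome, with 371 kilobases between the starts of the windows printed above, and went in opposite directions. Of the 7 genes tested between them 1 changed, beside 24.6% of all genes. That gene, Krcc1, was higher by 0.27 (adjusted p = 0.00926) and is given here only because it lies between them.

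Kdm1b and Kdm1a encode flavin-dependent demethylases of histone H3 lysine 4; KDM1A is the enzyme of the CoREST corepressor complex. Kdm1b was 6.62, 6.70, 6.57 and 6.50 in WT and 6.38, 6.34, 6.31 and 6.23 in KO hearts, with no overlap. It fell by 0.28 (SE 0.06, 95% interval -0.41 to -0.15, adjusted p = 0.00574). Kdm1a was 7.95, 8.03, 7.84 and 7.78 in WT and 7.78, 7.73, 7.63 and 7.66 in KO hearts, where the highest KO heart nearly reached the lowest WT heart. It fell by 0.20 (SE 0.06, adjusted p = 0.0487), a call close to the threshold that held in 7 of 17 alternatives, and leaving out any single array except WT replicate 4 ended it (adjusted p up to 0.117).

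The KDM4 enzymes act on histone H3 lysine 9 and lysine 36. Kdm4b was 7.48, 7.48, 7.61 and 7.68 in WT and 7.36, 7.29, 7.29 and 7.38 in KO hearts, without overlap. It fell by 0.23 (SE 0.06, 95% interval -0.36 to -0.10, adjusted p = 0.015). Kdm4a was 8.25, 8.23, 8.34 and 8.27 in WT and 8.16, 8.16, 8.11 and 8.07 in KO hearts. It fell by 0.15 (SE 0.05, adjusted p = 0.0454), again without overlap, but passed in only 7 of 17 alternatives and in none of the fits without one array except that without WT replicate 2. Kdm4c differed by -0.01.

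The KDM5 enzymes remove methyl groups from histone H3 lysine 4. Kdm5b had the largest difference that did not pass, -0.23 (95% interval -0.43 to -0.02, adjusted p = 0.102), with WT values of 6.96 to 7.35 and KO values of 6.75 to 7.04. Without WT replicate 2, its highest heart, the difference was -0.15 (adjusted p = 0.208). Kdm5b passed in 1 of the 17 alternatives. Kdm5a was 7.83 to 7.89 in WT and 7.59 to 7.81 in KO hearts (-0.13, adjusted p = 0.119), and Kdm5c 7.88 to 7.91 and 7.79 to 7.84 (-0.07, adjusted p = 0.302), both without overlap. Kdm2b differed by -0.14 (adjusted p = 0.192), and by -0.08 without WT replicate 2 (adjusted p = 0.397). Kdm2a and the H3 lysine 27 demethylase gene Kdm6b lay between -0.05 and -0.01.

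**Figure D2:**
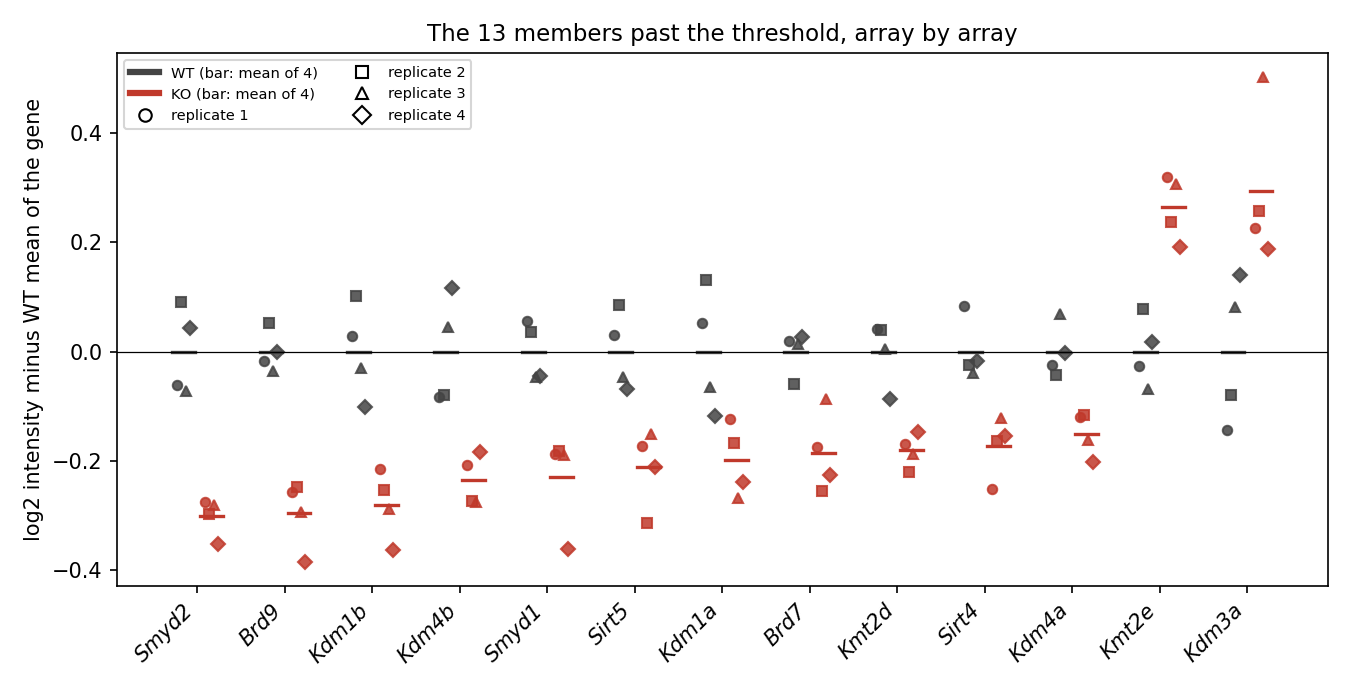
Log2 intensity of the 13 genes past the threshold on each of the 8 arrays, minus the WT mean of the gene (points, with 1 symbol per replicate number; bars are the means of 4 arrays, WT grey and KO red). The groups do not overlap for any of the 13; KO replicate 4 is the lowest point for Smyd2, Brd9, Kdm1b, Smyd1 and Kdm4a.

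Among the bromodomain genes 2 of 6 fell and none rose (33.3% changed, beside 24.6% of all genes tested). Brd9 is a subunit of a noncanonical form of the SWI/SNF chromatin remodelling complex. It was 7.42, 7.48, 7.40 and 7.43 in WT and 7.18, 7.18, 7.14 and 7.05 in KO hearts, and the lowest WT heart lay well above the highest KO heart. Brd9 fell by 0.30 (SE 0.05, 95% interval -0.41 to -0.18, adjusted p = 0.00175), the smallest adjusted p among the members. Brd7, a subunit of another form of that complex (PBAF), was 8.44, 8.36, 8.44 and 8.45 in WT and 8.25, 8.17, 8.34 and 8.20 in KO hearts. It fell by 0.19 (SE 0.05, adjusted p = 0.0264). Brd7 lost its call in 6 of 8 fits without one array, with adjusted p up to 0.0813 without KO replicate 2. Brd2 and Brd3, which bind acetylated histones through paired bromodomains, and Brd1 and Brd8, subunits of acetyltransferase complexes, lay between -0.05 and 0.05.

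Sirtuins are NAD-dependent deacylases, unrelated in mechanism to HDAC3, and SIRT3, SIRT4 and SIRT5 work in mitochondria. Of the 7 genes 2 fell and none rose (28.6% changed, beside 24.6% of all genes tested). Sirt5, which removes succinyl and malonyl groups, was 7.44, 7.49, 7.36 and 7.34 in WT and 7.23, 7.09, 7.26 and 7.20 in KO hearts. It fell by 0.21 (SE 0.06, 95% interval -0.34 to -0.08, adjusted p = 0.021). Sirt4 was 7.41, 7.31, 7.29 and 7.31 in WT and 7.08, 7.17, 7.21 and 7.18 in KO hearts. It fell by 0.17 (SE 0.05, 95% interval -0.29 to -0.06, adjusted p = 0.033). Both genes had groups that did not overlap. Sirt5 lost its call without WT replicate 1 (adjusted p = 0.0551) or KO replicate 2 (0.0646). Sirt4 lost it without WT replicate 1 (0.0901), WT replicate 4 (0.059), KO replicate 1 (0.107) or KO replicate 2 (0.0709).

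The third mitochondrial sirtuin gene, Sirt3, did not follow them, with WT values of 7.46 to 7.69, KO values of 7.51 to 7.68 and a 95% interval of -0.14 to 0.14. The nuclear Sirt6 differed by -0.18 (adjusted p = 0.108) and the largely cytosolic Sirt2 by -0.14 (adjusted p = 0.0787, 9.45 to 9.57 in WT and 9.27 to 9.43 in KO hearts). Sirt2 passed in 3 of the 17 alternatives. Sirt1 (0.01, 95% interval -0.10 to 0.12) and Sirt7 (-0.05) lay near 0.

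The acetyltransferases are the enzymes that work against deacetylases, and none of the 9 passed, beside 24.6% of all genes tested. Ep300, a general coactivator, was 8.93 to 9.07 in WT and 8.90 to 9.08 in KO hearts (-0.02, 95% interval -0.14 to 0.10, adjusted p = 0.846). Its relative Crebbp was 9.77 to 9.85 and 9.72 to 9.81 (-0.06, 95% interval -0.16 to 0.04). Both groups of values overlapped nearly in full for Ep300 and in part for Crebbp. The nearest to the threshold was Kat2b, an enzyme of the SAGA and ATAC coactivator complexes (-0.16, 95% interval -0.29 to -0.03, adjusted p = 0.0785), with 7.27 to 7.46 in WT and 7.14 to 7.30 in KO hearts. It passed in 1 of the 17 alternatives. Kat6b, of the MOZ family, differed by -0.14 (adjusted p = 0.123), and by -0.09 without KO replicate 4 (adjusted p = 0.23). The TIP60 gene Kat5 differed by -0.10 (adjusted p = 0.18), without overlap of the groups. Kat2a, Kat6a, Kat7 and Kat8 lay between -0.10 and 0.07.

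The 4 PRC2 genes did not pass. Ezh2, the catalytic subunit known from dividing cells, was 7.44 to 7.70 in WT and 7.44 to 7.79 in KO hearts (0.11, 95% interval -0.07 to 0.30, adjusted p = 0.382), in hearts in which 10 of 14 proliferation markers rose. The difference of Ezh2 came to 0.06 when KO replicate 3 was left out, 0.18 when KO replicate 4 was and 0.17 when WT replicate 2 was, and it did not pass in any of these fits. Ezh1, the form known from resting tissue, was 8.65 to 8.87 and 8.61 to 8.82 (-0.01, 95% interval -0.15 to 0.14). Eed differed by 0.01 and Suz12 by -0.12 (adjusted p = 0.2). The corepressor subunits, which tether histone deacetylases other than HDAC3, did not pass either. Rcor1, the scaffold of CoREST, was 8.10 to 8.20 in WT and 7.89 to 8.12 in KO hearts (-0.16, 95% interval -0.29 to -0.03, adjusted p = 0.0687). It passed in 4 of the 17 alternatives. Sin3a differed by -0.10 (adjusted p = 0.378), and by -0.03 without WT replicate 2 (adjusted p = 0.769). The NuRD subunit genes Mta1 and Mta2 differed by 0.06 and -0.05.

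For the 40 members that did not pass, differences lay between -0.23 and 0.13, and 30 of the 40 intervals lay wholly within 0.26 of 0 on either side. The widest bounds reached -0.43 and 0.30, so a change of that size in single genes is not excluded by 4 arrays per group. Groups did not overlap for 7 of these 40 genes, and for 20 of all 53 (37.7%), against 28.6% of all genes tested. By direction, 4 members (7.55%) were higher without overlap, against 11.7% of all genes, and 16 (30.2%) were lower, against 16.8%. These shares were not counted for the brighter genes alone. At least 0.26 in size and past the threshold were 5 members (9.43%), against 16.9% of all genes, and 14.7% of all genes differed by more than the largest member.

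The values of the members leaned downward. Of the 53 differences 42 (79.2%) were below 0, against 51.8% of all genes tested and 55.8% of the brighter genes. Their median was -0.07, against -0.01 over all genes and -0.03 over the brighter genes. The 133 other chromatin genes described below leaned downward as well, with 93 differences below 0, 40 above and a median of -0.07. Averaged over the 53 genes and set against the WT mean, the WT hearts were at -0.03, 0.06, -0.01 and -0.02 and the KO hearts at -0.07, -0.06, -0.05 and -0.12. WT replicate 2 was the highest and KO replicate 4 the lowest heart. No test was made of this lean, since members were chosen as a list. With other scalings of the arrays the median was -0.09 (median scaling) and -0.07 (quantile normalisation). Leaving out each array in turn gave -0.11 to -0.06, the lowest without WT replicate 4 and the highest without WT replicate 2.

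**Figure D3:**
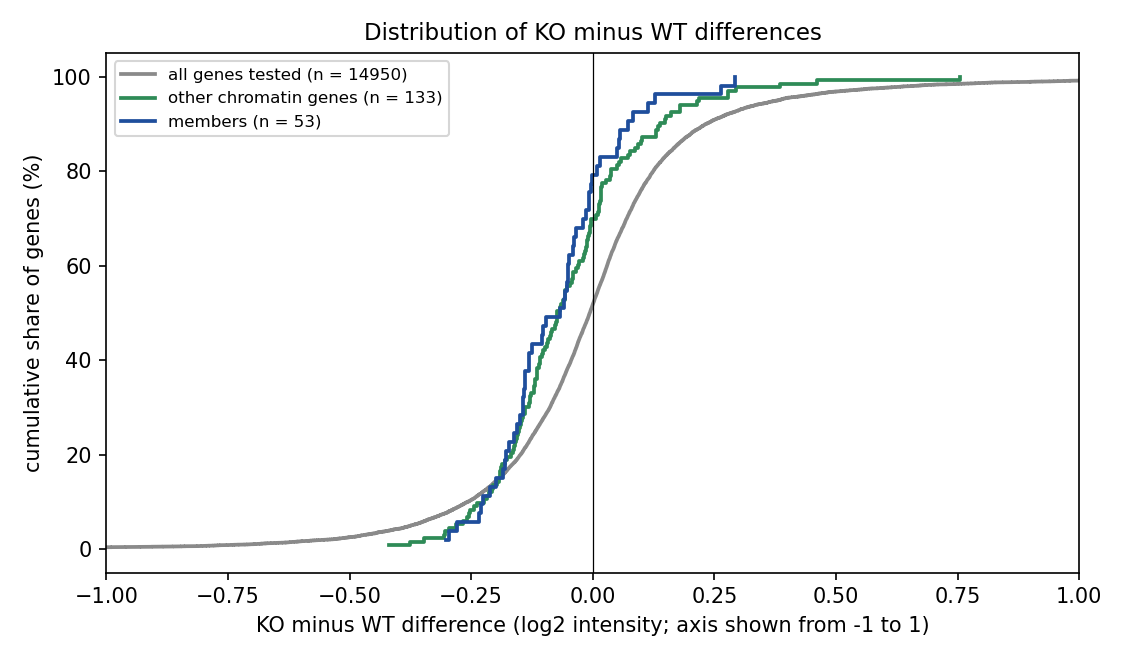
Cumulative share of genes (percent) by KO minus WT difference (log2 intensity) for the 53 members (blue), 133 other chromatin genes (green) and all 14950 genes tested (grey). The members' curve crosses 0 at 79.2% and that of all genes at 51.8%, while the members have no difference beyond -0.30 and 0.29. Of the 133 other chromatin genes 93 lie below 0.

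Close relatives were then compared within arrays, by the log2 ratio of one gene to the other, to see whether their levels moved apart. With the exact permutation test (two-sided, 70 ways to label the arrays) the smallest p possible was 0.0286, reached by 3 of 15 pairs, and 0 of 15 passed after Benjamini-Hochberg adjustment over the pairs. At least 9 pairs at that smallest p would have been needed for any to pass. The ratio of Kdm3a to Kdm3b was -1.34, -1.39, -1.21 and -1.01 in WT and -0.90, -0.90, -0.58 and -0.86 in KO hearts. It was higher in KO hearts by 0.43 (95% interval 0.14 to 0.71, exact permutation p = 0.0286, adjusted 0.143), higher in 4 of 4 KO hearts than in any WT heart. The ratio of Kat6a to Kat6b was higher by 0.19 (0.73 to 0.82 in WT, 0.93 to 1.02 in KO hearts, 95% interval 0.11 to 0.27) and that of Kat2a to Kat2b by 0.12 (0.54 to 0.62 and 0.67 to 0.75, 95% interval 0.05 to 0.19), with the same p and adjusted p. In 4 pairs both relatives fell. Their ratios differed by 0.07 for Smyd1 and Smyd2 (95% interval -0.06 to 0.20) and 0.08 for Kdm1a and Kdm1b (95% interval 0.02 to 0.15, exact permutation p = 0.0857, adjusted 0.321). They differed by 0.08 for Kdm4a and Kdm4b (95% interval -0.05 to 0.22) and 0.11 for Brd7 and Brd9 (95% interval -0.04 to 0.26). For Ep300 and Crebbp the interval was -0.03 to 0.11, and for Ezh1 and Ezh2 -0.36 to 0.12.

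**Figure D4:**
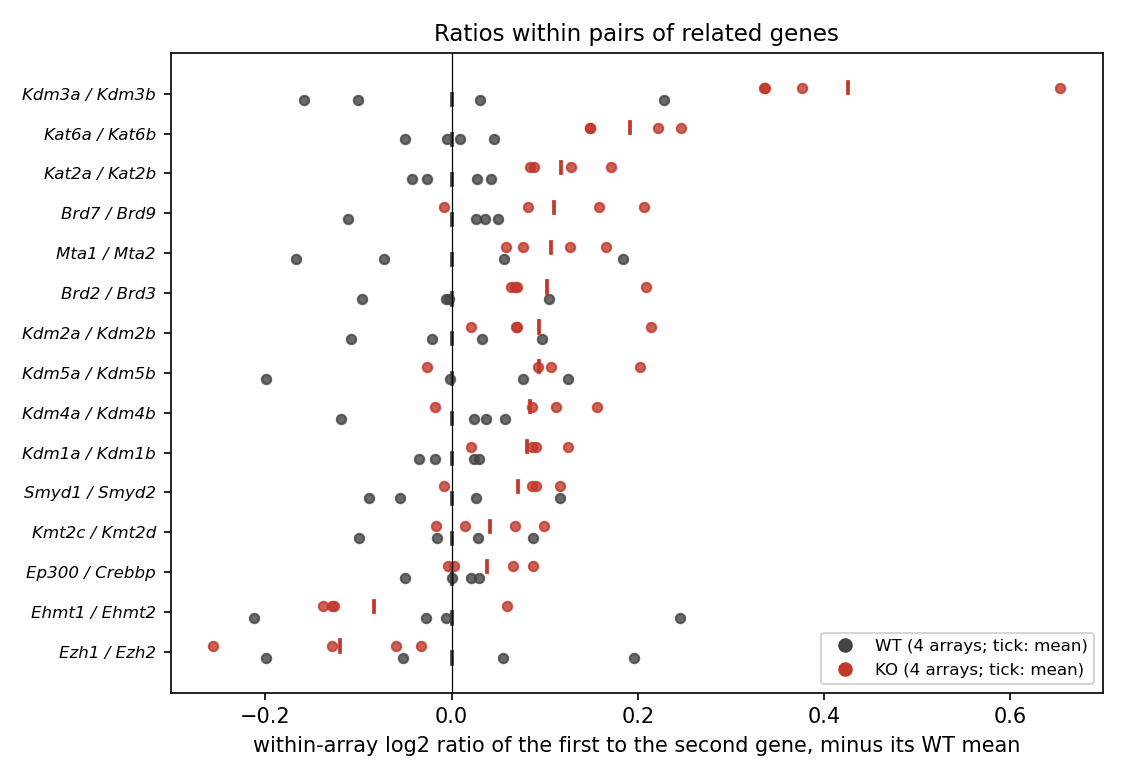
Within-array log2 ratio of the first to the second gene of 15 pairs of relatives, minus the pair's WT mean (points, 4 WT arrays grey and 4 KO arrays red; ticks are group means). The groups separate for Kdm3a / Kdm3b, Kat6a / Kat6b and Kat2a / Kat2b and overlap for the other 12 pairs.

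Further genes of the same machinery, from a list of relatives and partners, were read from the same fit. Of 136 measured, 133 passed the dim filter, and 8 rose and 23 fell (23.3%, beside the 24.6% of all genes). By direction, 10.8% of all genes rose and 13.9% fell. The median of the 133 was -0.07. With median scaling 6 rose and 33 fell, beside 1356 that rose and 2365 that fell among all 14950 genes. Chd3, a remodelling ATPase of the NuRD complex, had the largest difference. It was 7.09, 7.14, 7.17 and 7.06 in WT and 7.85, 7.85, 7.91 and 7.89 in KO hearts and rose by 0.76 (SE 0.05, 95% interval 0.65 to 0.86, adjusted p = 3.92e-06), more than any of the 53 members.

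Of these NuRD, SIN3 and CoREST subunits 7 of 24 fell, with Rcor2 (-0.28) and Rcor3 (-0.25), scaffolds of CoREST, as the largest falls; the 1 that rose was Chd3. Among 19 other polycomb genes 4 fell, led by Jarid2 (-0.42), a partner of PRC2, and Bmi1 (-0.38), a subunit of polycomb repressive complex 1, and Phf19 (0.28) rose. Of 20 other bromodomain genes 5 fell, with the PBAF subunit Pbrm1 (-0.27) and Zmynd11 (-0.24) first, and 2 rose, Atad2 (0.38), known from dividing cells, and Baz1a (0.21). Among 27 other acetyltransferases and their partners 3 rose and 3 fell: Jade2 (0.46) and Hat1 (0.28) rose most, and Ing5 (-0.26) and Jade1 (-0.21) fell most. Of 32 other methyltransferases and their partners 4 fell and none rose, with the arginine methyltransferase genes Prmt1 (-0.35) and Prmt5 (-0.31) first. Hr (0.29) was the 1 of 12 other demethylase genes that changed. In the order of these lists, 33.3%, 26.3%, 35.0%, 22.2%, 12.5% and 8.33% changed. Over all genes tested 24.6% changed, 10.8% higher and 13.9% lower. None of the lists was tested against those shares. Counts over the lists together also moved with single arrays: 12 to 23 fell and 5 to 9 rose when each array was left out in turn.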

How the data were processed

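The submitters' processing notes name Partek and RMA without version or role. The authors deposited 1 processed intensity on a linear scale per transcript cluster and array (27541 clusters, 8 arrays). The scaling, annotation and genome build were not given in the sources used here. Detection calls and batches were not analysed here. The number of arrays limits the precision. Values were taken to log2 without further scaling. Of the clusters, 21631 carried 1 gene symbol, 1317 several and 4593 none. The Entrez ID of 21544 was found in RefSeq (GRCm38.p6, names only), which updated 0 symbols. Promoter windows and their coordinates came from RefSeq on that build. The brightest cluster per gene was kept, and genes whose mean lay below the 25th percentile (intensity 22.6) were left out (4983 of 19933). Groups were compared with limma 3.58.1 in R 4.3.3 (lmFit, eBayes, two-sided, 6 residual degrees of freedom, no covariate), tested on simulated data. Ratios were tested by exact permutation in Python 3.11.15. The members and lists were chosen with earlier results of these data known. By rule, every member is named with its difference or in a range, changed members of at least 0.26 by every array, and of each list of relatives up to 2 changed genes each way. Array values of the other changed members, and Setd7 and the groups after the report, were added after values were seen. Alternatives were 2 other scalings, 2 dim filters, an offset of 16, another variance model, array weights, the mean of clusters, a replicate block and leaving out each array. The limma p-values set each difference against the spread between these hearts, moderated over all genes tested.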

Additional observations from a re-analysis of the deposited data

Results flagged for a closer look

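A single heart stood apart from the other 3 of its group, by Dixon's ratio above its 95% critical value, in 7 of 106 checks (53 genes in 2 groups); chance flags about 1 in 20. In KO replicate 3, Crebbp was 9.81 against 9.72 to 9.73 in the other KO hearts, and Kmt2c was 8.69 against 8.62 to 8.63. In KO replicate 4, Kdm5c was 7.79 against 7.84 in all others, and Smyd1 was 10.25 against 10.42 to 10.43. In WT replicate 2, Ezh2 was 7.70 against 7.44 to 7.49, Sin3a was 7.61 against 7.27 to 7.32 and Brd7 was 8.36 against 8.44 to 8.45. Of these genes Smyd1 and Brd7 changed in the main comparison. Without KO replicate 4, Smyd1 differed by -0.19 (adjusted p = 0.0223), and without WT replicate 2, Brd7 differed by -0.21 (adjusted p = 0.0245). Without WT replicate 2, Sin3a differed by -0.03 and Ezh2 by 0.17.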

How the results depend on the processing

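The 29 members with a difference of at least 0.1 in size kept its sign in each of 17 alternatives, and so did Hdac3. Of the smaller differences 9 changed sign in at least 1 alternative: Ep300, Kdm4c, Kdm6b, Dot1l, Ezh1, Eed, Brd1, Sirt1 and Sirt3. Of 13 changed members, 9 to 13 kept their call under the 9 alternatives with all arrays and 6 to 11 without one array. The count of higher members moved from 2 to 1 with median scaling, which ended the call of Kdm3a. Lower members numbered 8 to 15 with all arrays, and 5 to 10 without one array. Higher members were 1 to 2 without one array. Over all genes 3683 changed, against 3382 to 4529 and, without one array, 2869 to 3621. The 23 related genes that fell became 35 with the stricter dim filter and 15 with the replicate block. Over all genes 2071 of 14950 fell, against 2217 of 9967 with the stricter dim filter and 1916 of 14950 with the replicate block. Without one array the related genes that fell were 12 to 23, and the 8 that rose were 5 to 9. With the replicate number as a block 2 members rose and 8 fell, and Kdm4a, Kmt2d, Sirt4 and Sirt5 lost their call. Same-numbered hearts shared only a number: their deviations correlated at -0.04 to 0.08, and 1 of 8 arrays correlated best with its own number. The cause of these moves was not tested, beyond the smaller number of arrays or genes. The count of pairs that passed was 0 in the 12 alternatives run for pairs, which says nothing about stability, since the design nearly fixed it at 0.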

Other observations

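Some further groups of the same machinery were chosen after their values were seen, so they are descriptions only. Over all genes tested 10.8% rose and 13.9% fell. In the CoREST complex, built around KDM1A, Kdm1a (-0.20), Rcor2 (-0.28), Rcor3 (-0.25), Zmym2 (-0.20) and Hmg20b (-0.19, adjusted p = 0.0489) fell. Rcor1 (-0.16), Phf21a (-0.11) and Gse1 (-0.10) did not pass but had differences of the same sign. Groups overlapped for Rcor2 and Hmg20b.

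Among 7 arginine methyltransferase genes Prmt1, Prmt5 and Carm1 (-0.22) fell. Prmt5 was 9.35, 9.50, 9.32 and 9.36 in WT and 9.07, 9.11, 9.10 and 9.03 in KO hearts, without overlap. Prmt7 (-0.15), Prmt3 (-0.11), Prmt2 (-0.09) and Prmt6 (-0.07) did not pass.

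Of the SWI/SNF genes only those with a bromodomain were on the lists, so other subunits of the complex were not read. Among them Brd9, Brd7 and Pbrm1 fell. The ATPase genes Smarca4 (-0.12, adjusted p = 0.114) and Smarca2 (0.16, adjusted p = 0.0509) did not pass and differed in sign. Setd7, a methyltransferase of histone H3 lysine 4, fell by 0.30 (SE 0.06, adjusted p = 0.00498) and passed in each of 17 alternatives.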
